A study of Mus musculus with 12 samples.

Results

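Normal CD4 and CD8 T cells from lymph nodes (LN) were compared across the transcriptome, to describe which genes separate resting helper-lineage from cytotoxic-lineage cells and what those genes do, including genes that differed by less than 5-fold. The comparison used 6 of the 12 RNA-seq libraries of the study, 3 of B6 CD4 and 3 of B6 CD8 LN T cells. The other 6 come from FlipFlop mice, in which the coding parts of the coreceptor genes are exchanged, and were not compared here. The 3 CD4 and 3 CD8 libraries came from female mice of strain C57BL/6 (B6), 10 weeks old, with no engineered allele or treatment in the labels, and the cells were electronically sorted before total RNA was extracted. A gene was included when it had at least 1 CPM (read counts scaled to a common library total, here with TMM factors) in at least 3 of these 6 libraries, which kept 11134 of the 12809 genes in the table, and the other 1675 were not tested. The sources used here do not say whether the 3 libraries of a group came from separate mice, so the p-values measure the spread between these samples, which may be partly technical.

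As background, T cells that recognize peptides on MHC class II become CD4 helper cells, and T cells that recognize peptides on MHC class I become CD8 cytotoxic cells. The transcription factor ThPOK, encoded by Zbtb7b, maintains the helper program, and Runx3 maintains the cytotoxic program. In a mouse that has not been infected, most LN T cells of both kinds are resting. A minor part of the CD4 cells are regulatory or follicular helper cells, and a minor part of the CD8 cells have a memory phenotype.

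The libraries held between 26600000 and 33100000 reads on the listed genes, so the value that 3 reads give was between 0.0919 and 0.12 CPM. The libraries of different cell types differed by a root mean square of 0.653 to 0.74 on the log2 scale, and the 3 CD8 libraries differed among themselves by 0.235 to 0.288. CD4 replicate 1 stood apart from CD4 replicates 2 and 3, by 0.367 and 0.43, while those 2 differed by 0.251. Its values moved with exon length: relative to the mean of the CD4 libraries, the median deviation was 0.16 in the 2786 genes with the shortest exons and -0.18 in the 2784 with the longest, on the log2 scale. Replicate 3 of both cell types had higher interferon-stimulated genes than the other replicates.

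The labels matched the cells. Cd4, the coreceptor for MHC class II, was at 961, 1090 and 1016 CPM in the CD4 libraries and at 2.4, 0.6 and 1.39 CPM in the CD8 libraries. Cd8a, which encodes the CD8 alpha chain, was at 0.827, 0.42 and 1.59 CPM in CD4 and at 1496, 1500 and 1472 CPM in CD8. Cd8b1, the beta chain, was at 28.1, 20.7 and 22.7 CPM in the CD4 libraries and at 1893, 1924 and 1839 CPM in CD8, so its CD4 values stayed well above the value of 3 reads. T cell markers summed to 5102 to 6503 CPM in CD4 and 4914 to 4992 CPM in CD8. Of the defining markers of other cells, the B cell list summed to 537 to 591 CPM in CD4 and 579 to 618 CPM in CD8, nearly all of it Ighm. The NK list was at 4.36 to 9.54 CPM in the 6 libraries, and Ncr1, Klra8 and Cd244a were not analysed here. The gamma delta T cell list was at 18 to 22.2 CPM in CD4 and 11.3 to 12.9 CPM in CD8, and the myeloid list at 87 to 99.4 and 78.1 to 86.8 CPM. The red blood cell list was at 22.1 to 28.8 and 15.9 to 25.2 CPM, and the stromal list was at 0.161 CPM or less. The part of these cells in the results was not tested.

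Of the 11134 genes, 2170 (19.5%) passed an adjusted p-value of 0.05 in limma, and these are called differences below. CD4 cells had the higher level for 1246 genes (11.2% of those tested) and CD8 cells for 924 (8.3%). The balance depended on the scaling: with the TMM factor taken out, 1544 were higher in CD4 and 702 in CD8, so the share higher in CD4 went from 57.4% to 68.7%. Most differences were small. With a pseudocount of 0.5, 182 genes (1.63%) differed by more than 5-fold, 111 of them higher in CD4 and 71 in CD8. That number was 290 with a pseudocount of 0.1, 120 with a pseudocount of 1 and 112 with a mean of at least 5 CPM required. With 0.5, the other 1988 (91.6% of the calls) differed by 5-fold or less. Between 2- and 5-fold there were 616 genes, between 1.5- and 2-fold 618, and up to 1.5-fold 754. The smallest differences were called mostly among abundant genes, with a median of 45.4 CPM in the higher group up to 1.5-fold against 7.1 CPM between 2- and 5-fold. A gene under 1 CPM in all libraries of 1 group passed the filter through the other group alone and was bound to be higher there. This was so for 231 genes through CD4 (219 called) and 104 through CD8 (92 called). Of the other 10799 genes 17.2% were called. The 3 CD4 and 3 CD8 libraries did not overlap in any called gene, while 37.4% of all tested genes had no overlap. Of the calls, 2019 were protein-coding genes, 77 long noncoding RNAs and 18 pseudogenes. All 182 genes over 5-fold were called whichever library was left out, as were 1341 of the 2170. The number of calls was 1426 without CD8 replicate 2 and 3097 without CD4 replicate 1.

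**Figure D1:**
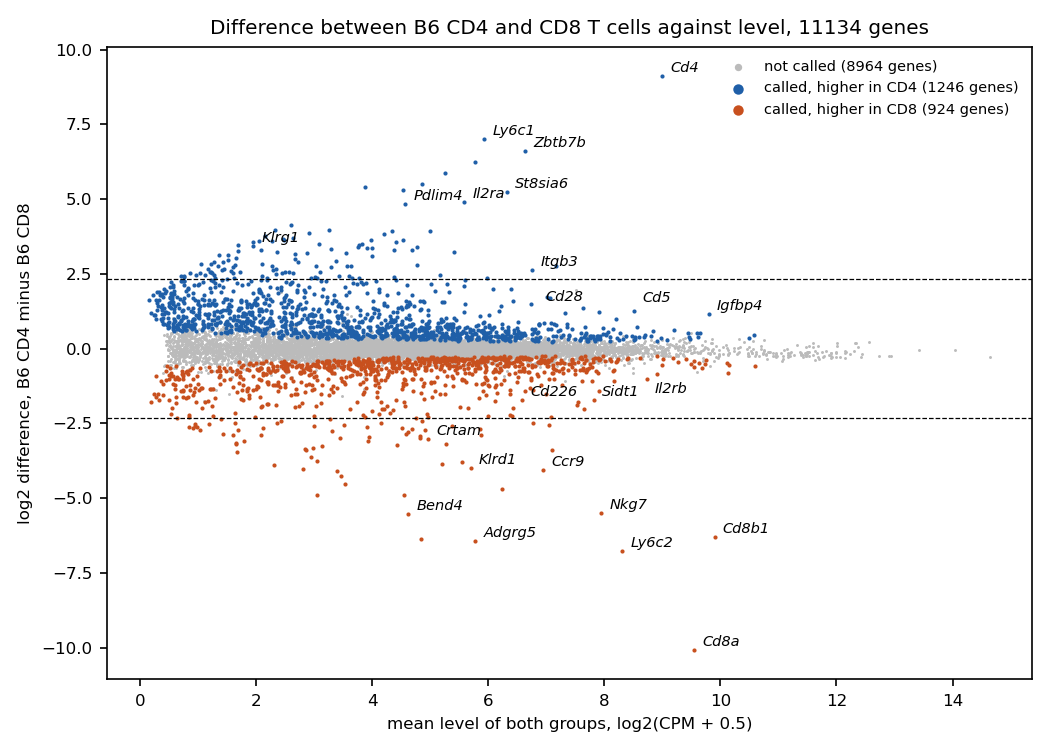
Each point is 1 of the 11134 genes, with the mean level of both groups on the x axis as log2(CPM + 0.5) and the log2 difference, B6 CD4 minus B6 CD8, on the y axis. Dashed lines mark 5-fold, and most of the 1246 blue (higher in CD4) and 924 orange (higher in CD8) called genes lie between them.

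The genes with the largest rise in CD4 cells were led, after Cd4, by the GPI-anchored surface protein Ly6c1, at 117, 95.5 and 146 CPM in CD4 and 0.731, 0.14 and 0.51 CPM in CD8. Zbtb7b was at 203, 193 and 192 CPM in CD4 and 1.5, 1.16 and 1.99 CPM in CD8. Of the genes of regulatory T cells, the transcription factor Foxp3 (112-fold), the surface protein Lrrc32, which binds latent TGF-beta (164-fold), Il2ra, the IL-2 receptor alpha chain (34.8-fold), the costimulatory receptor Tnfrsf4 (75-fold) and the semaphorin receptor Nrp1 (20-fold) were in this group. Cd40lg, the ligand with which helper cells license B cells and dendritic cells, was 91.9-fold higher, and Maf, a transcription factor of IL-10- and IL-21-producing cells, was 69-fold higher. Less familiar members were the sialyltransferase St8sia6 (43.9-fold), the actin-associated LIM protein Pdlim4 (42.6-fold), the unconventional myosin Myo10 (26.8-fold), the extracellular matrix protein Ecm1 (17.3-fold) and the predicted gene Gm4956 (75.5-fold). St8sia6 was at 113, 164 and 187 CPM in CD4 and at 3.11, 3.68 and 3.78 CPM in CD8, and Pdlim4 at 55.4, 44.1 and 36.5 against 1.05, 1.12 and 1.03 CPM. In both, every CD4 library was above every CD8 library by more than 10-fold.

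In CD8 cells the largest rises after Cd8a were of Ly6c2, at 531, 642 and 704 CPM against 3.76, 3.22 and 11.4 CPM in CD4, and of Adgrg5, an adhesion G protein coupled receptor, at 101, 111 and 111 against 0.564, 0.613 and 1.13 CPM. The neutral amino acid transporter Slc6a19, best known from kidney and intestine, was at 55.2, 53.4 and 59.3 CPM in CD8 and at 0.0751, 0.226 and 0.245 CPM in CD4. Nkg7, a membrane protein of cytotoxic granules, was 41.3-fold higher and Plac8 24.9-fold. For these the CD4 spread was wide, since CD4 replicate 3 held 20.6 CPM of Nkg7 against 7.48 and 6.71 CPM in the others, and 10.4 CPM of Plac8 against 2.63 and 4.33 CPM. The transcription regulator Bend4 (88.6-fold), the TGF-beta co-receptor Eng (43.9-fold), the aspartyl protease Bace1 (46.4-fold), the voltage-gated potassium channel Kcnc1 (33.5-fold), Lcn4 of the lipocalin family (29.1-fold), Haao of the kynurenine pathway (40.1-fold) and the gut-homing receptor Ccr9 (17-fold) completed the group. Bend4 was at 46.3, 46.6 and 49.6 CPM in CD8 and near 0.5 CPM in each CD4 library. The predicted gene Gm43698 was at or under 3 reads in every CD4 library and at least 154-fold higher in CD8. Ly6c1 and Ly6c2 are near-identical neighbours, and reads of 1 can be counted for the other, so their levels are uncertain.

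Promoters of the genes over 2-fold were examined for short strings, using RefSeq starts on GRCm38.p6 with 250 bases before and 50 bases after the start. The string TGTGGT, the core recognized by RUNX factors, was present on either strand in 12.8% of 10825 promoters of tested genes, in 12.4% of 508 promoters of genes higher in CD4 and in 21.4% of 309 promoters of genes higher in CD8. The T-box string TCACAC was in 10.9%, 13% and 19.1% of them. The strings differed less for the TCF factors (CTTTGA, in 11.8%, 12.6% and 13.3%), NF-kB (GGGACT, 21.4%, 20.1% and 20.1%) and ETS factors (AGGAAG, 33.8%, 35.8% and 36.2%). The E-box string CACCTG was in 17.2%, 23.4% and 19.7%. Mean GC content was 60.7%, 59.9% and 58.1%, and the shares differed with it. Among promoters of the lowest GC content the RUNX string was in 17.2%, 20.3% and 28.9% and the T-box string in 14.7%, 16.8% and 27.5%. With middle GC content the RUNX string was in 13.3%, 10.7% and 16.7% and the T-box string in 10.4%, 11.4% and 15.3%. With the highest GC content the RUNX string was in 7.75%, 3.82% and 12.5%, whereas the T-box string was in 7.47%, 9.55% and 7.95% and so not more frequent in genes higher in CD8 than in those higher in CD4. A promoter was found for 8495 of 11126 tested symbols, 377 of 500 higher in CD4 and 228 of 298 higher in CD8. These are descriptions of letters in a window, and binding was not measured.

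The promoters below show the RUNX string, or its reverse complement ACCACA, in capitals for genes chosen because they hold it, Adgrg5, Nkg7 and Plac8 of the largest rises in CD8, and for the Ly6c1 and Ly6c2 pair, which moved in opposite directions. Of the 15 genes with the largest rise in CD8, 12 had a listed promoter and 4 of these held the string, the fourth being Ly6c2. Of the 15 with the largest rise in CD4, 10 had a listed promoter and 1, Zbtb7b, held it. Where a gene had several listed starts, the window with the most copies is shown, and the other window of Plac8 held none. Each is written 5′ to 3′ on the strand of the gene. Adgrg5 lies at chr8:94923444-94923743 on the plus strand, Nkg7 at chr7:43436888-43437187 on the plus strand, Plac8 at chr5:100572156-100572455 on the minus strand, Ly6c1 at chr15:75048788-75049087 and Ly6c2 at chr15:75111922-75112221, both on the minus strand.
Adgrg5: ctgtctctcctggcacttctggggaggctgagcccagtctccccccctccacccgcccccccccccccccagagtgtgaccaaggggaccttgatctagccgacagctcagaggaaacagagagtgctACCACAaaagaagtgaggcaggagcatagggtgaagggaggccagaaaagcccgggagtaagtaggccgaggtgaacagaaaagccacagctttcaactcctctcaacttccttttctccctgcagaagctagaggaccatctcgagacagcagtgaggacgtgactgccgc
Nkg7: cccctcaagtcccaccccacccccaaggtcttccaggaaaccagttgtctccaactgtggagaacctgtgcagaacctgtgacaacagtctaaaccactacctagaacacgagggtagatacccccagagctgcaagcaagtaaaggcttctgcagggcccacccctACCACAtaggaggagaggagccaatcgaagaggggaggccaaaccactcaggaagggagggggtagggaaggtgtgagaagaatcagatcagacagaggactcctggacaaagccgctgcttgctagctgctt
Plac8: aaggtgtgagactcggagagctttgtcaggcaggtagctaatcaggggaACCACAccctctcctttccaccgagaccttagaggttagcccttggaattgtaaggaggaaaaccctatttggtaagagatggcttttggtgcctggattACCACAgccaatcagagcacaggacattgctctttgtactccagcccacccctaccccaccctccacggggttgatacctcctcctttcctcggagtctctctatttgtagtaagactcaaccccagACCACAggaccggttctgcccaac
Ly6c1: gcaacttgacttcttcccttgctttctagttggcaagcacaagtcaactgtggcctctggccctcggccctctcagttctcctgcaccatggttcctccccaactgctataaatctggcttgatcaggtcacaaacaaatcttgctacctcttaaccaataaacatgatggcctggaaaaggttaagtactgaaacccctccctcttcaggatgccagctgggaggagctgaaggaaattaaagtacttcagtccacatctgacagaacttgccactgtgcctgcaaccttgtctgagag
Ly6c2: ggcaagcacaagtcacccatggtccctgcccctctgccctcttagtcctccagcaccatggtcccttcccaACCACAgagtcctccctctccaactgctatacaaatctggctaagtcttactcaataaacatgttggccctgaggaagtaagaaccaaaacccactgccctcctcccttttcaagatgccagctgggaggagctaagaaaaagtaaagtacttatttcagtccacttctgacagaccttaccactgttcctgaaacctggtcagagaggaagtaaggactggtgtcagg
The string began 122 bases before the start in Adgrg5 and 83 bases before it in Nkg7. Plac8 held 3 copies, 201 and 101 bases before the start and 26 bases after it. Aligned end to end, the Ly6c1 and Ly6c2 windows shared 208 bases with 58 mismatches and 68 gap positions (78.2% identity without gaps). The Ly6c1 window held no copy and the Ly6c2 window 1, which began 179 bases before the start.

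The abundant genes that differed by 1.5- to 5-fold in favour of CD4 cells included surface receptors that tune TCR signals. Cd5, an inhibitory receptor that is induced by TCR signaling, was at 576, 517 and 462 CPM in CD4 and 228, 213 and 201 CPM in CD8 (2.42-fold, adjusted p = 7.61e-05). Its relative Cd6 was at 503, 478 and 428 against 322, 270 and 270 CPM (1.64-fold, adjusted p = 0.00191). Cd28, the main costimulatory receptor for CD80 and CD86, was at 254, 364 and 402 against 124, 150 and 151 CPM (2.4-fold, adjusted p = 0.00141). The levels of all 3 receptors separated the cell types without overlap, with Cd28 lowest in CD4 replicate 1. The remaining genes were Igfbp4, a binding protein for insulin-like growth factors (2.22-fold), Slfn2, a factor of T cell quiescence (1.52-fold), the integrin regulator Cytip (1.55-fold), the selenium carrier Selenop (1.97-fold), the AP-1 subunit Jund (1.6-fold), the lysosomal protease Ctsb (1.6-fold) and Ass1, an enzyme of arginine synthesis (2.56-fold). Ass1 was at 297, 296 and 263 CPM in CD4 and 112, 116 and 107 CPM in CD8, among the tightest of these differences (log2 difference 1.35 ± 0.08, SE).

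Among the abundant genes at 1.5- to 5-fold in favour of CD8 cells, Il2rb, the chain shared by the IL-2 and IL-15 receptors, was at 547, 585 and 562 against 249, 307 and 296 CPM (1.99-fold, adjusted p = 2.33e-04). Sidt1, a transmembrane RNA transporter, was at 355, 351 and 332 against 88.9, 111 and 117 CPM (3.28-fold), and the sorting receptor Sorl1 at 360, 360 and 322 against 96.4, 161 and 146 CPM (2.59-fold). Both were lowest in CD4 replicate 1. The ganglioside synthase B4galnt1 (1.56-fold), the membrane-binding annexin Anxa6 (1.52-fold), the actin-binding Tagln2 (1.79-fold), the ARF GTPase activator Smap2 (2.11-fold), the phosphatase Acp5 (1.68-fold) and the class Ib gene H2-Q6 (1.65-fold) were also in this band. Mitochondrial genes were left out of it, and mt-Co3 is described with the respiratory chain. Smap2 was at 401, 382 and 386 CPM in CD8 and at 186, 183 and 186 CPM in CD4, so both groups were narrow. H2-Q6 has close copies among the H2-Q genes, which makes its own level uncertain.

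**Figure D2:**
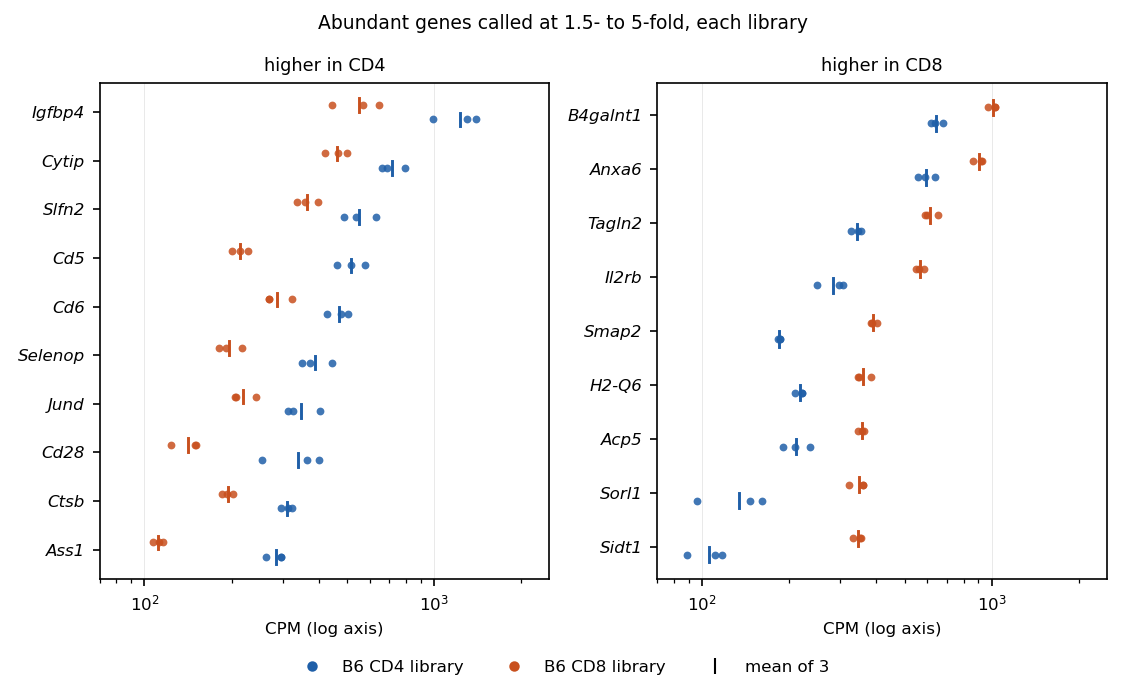
CPM on a log axis in each library for abundant called genes at 1.5- to 5-fold in each direction, with ticks at the mean of 3 libraries. In every gene the 3 blue (CD4) and 3 orange (CD8) points are separate, as for Cd5 at 462 to 576 against 201 to 228 CPM.

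Among 31 lists of genes grouped by function, 343 of 1148 distinct tested members (29.9%) were called, against 19.5% of all tested genes, 212 higher in CD4 and 131 in CD8. The members and the lists were chosen with earlier results of these data known. The shares therefore describe the lists only, and enrichment was not tested. The share called was 85.7% in the follicular helper list, 68.8% in helper costimulation and the TNF family and 62.1% among cytokine receptors. It was 11.5% in the TCA cycle and 0% in the nuclear respiratory chain and the ribosome, where 16 of 87 and 78 of 83 genes were called without CD4 replicate 1. Without the members that passed the filter through 1 group alone, the first 3 shares were 80%, 67.7% and 57.7%, against 17.2% of all genes so limited. The median difference of all tested genes was -0.01 on the log2 scale.

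**Figure D3:**
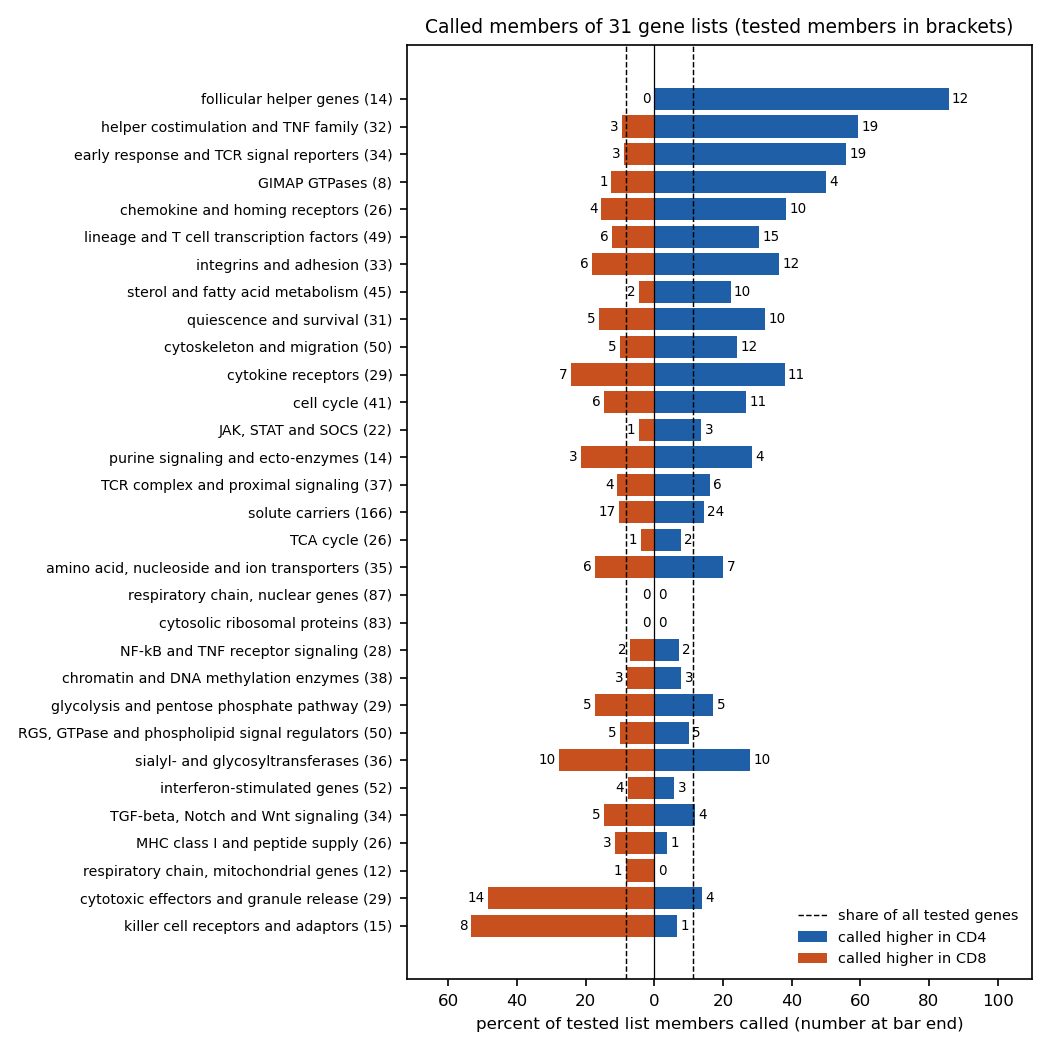
Bars give the percent of tested members of each list that were called higher in CD4 (blue, right) or in CD8 (orange, left), with the number called at the bar end and the number tested in brackets. Dashed lines mark the shares of all tested genes, 11.2% and 8.3%, and the follicular helper list has 12 of 14 members higher in CD4 while the cytotoxic list has 14 of 29 higher in CD8.

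In the TCR complex and its proximal signaling, 6 of 37 tested genes were higher in CD4 and 4 in CD8, with a median difference of 0.07, so that 27% were called against 19.5% of all tested genes. The kinase Lck, which binds both coreceptors, was at 1086, 1109 and 1040 CPM in CD4 and 954, 1059 and 1061 CPM in CD8 and was not called (adjusted p = 0.617). Besides Cd5 and Cd6, the CD3 zeta chain Cd247 was 1.34-fold higher in CD4 (adjusted p = 0.00914), a call that was lost without CD8 replicate 2. The CD8 side held Themis, an adaptor needed for thymic selection (1.65-fold, adjusted p = 0.00776), the phosphatase Ptpn22, which inactivates Lck and Zap70 (1.63-fold, adjusted p = 2.84e-04), and the adaptor Grap2 (1.47-fold), whose call was lost without CD8 replicate 1. Ptpn22 was at 247, 237 and 247 CPM in CD8 and 144, 155 and 150 CPM in CD4. The calls of Fyn and Lcp2, both 1.21-fold higher in CD4, were lost with the replicate number as a block, and the 6 calls higher in CD4 were 2 without CD8 replicate 2 and 3 without CD4 replicate 2 or CD8 replicate 3. Of the 4 higher in CD8, 2 remained in number without CD8 replicate 1 and there were 7 without CD4 replicate 1.

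Among lineage and T cell transcription factors, 15 of 49 were higher in CD4 and 6 in CD8, or 42.9% against 19.5% of all tested genes. Maf and Tox2 passed the filter through CD4 alone and Zfp683 through CD8 alone, so their directions were fixed by the filter. Of the other 46 genes 13 were higher in CD4 and 5 in CD8. Beyond Zbtb7b, Foxp3 and Maf, the HMG-box factor Tox2 was at 10.6, 18.5 and 11.6 CPM in CD4 and near 0.4 CPM in each CD8 library (31.7-fold, adjusted p = 9.66e-06). Ikzf2, which encodes Helios, was 5.15-fold higher, and Bhlhe40, a regulator of cytokine production, 6.46-fold. In CD8 cells the T-box factor Tbx21 was at 24.2, 24.3 and 25.2 CPM, against 3.19, 4.23 and 11.4 CPM in CD4, where replicate 3 was the highest (3.92-fold, adjusted p = 0.00565). Eomes was 9.72-fold and Zfp683, which encodes Hobit, 4.61-fold higher in CD8. Runx3 differed by far less than its counterpart ThPOK. It was at 124, 104 and 105 CPM in CD8 and 55.6, 67.7 and 68.4 CPM in CD4 (1.74-fold, adjusted p = 0.00165). Stat4, which transmits IL-12 signals, was 1.71-fold and Zbtb7a, a relative of Zbtb7b, 1.59-fold higher in CD8. Tcf7, the factor of naive and memory T cells with 1402, 1541 and 1476 CPM in CD4 and 1285, 1219 and 1242 CPM in CD8, did not pass the test (adjusted p = 0.0892), nor did Ikzf1 (adjusted p = 0.962).

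Helper costimulation and the TNF family were higher in CD4 cells for 19 of 32 tested genes, with a median difference of 0.74, and in CD8 cells for 3. Of the 19, Tnfrsf4 passed the filter through CD4 alone, so it was bound to be higher there. The called genes included both ligands and receptors. Tnfsf11, which encodes RANK ligand, was at 17.6, 16.5 and 11.2 CPM in CD4 and 0.974, 1 and 0.629 CPM in CD8 (17.4-fold, adjusted p = 1.44e-05). The inhibitory receptors Pdcd1 (15.5-fold), Tigit (12.8-fold) and Ctla4 (11.7-fold) were also higher in CD4, with Ctla4 at 47.2, 54.6 and 46.5 against 3.93, 4 and 4.74 CPM. Cd226, which competes with Tigit for CD155, went the other way, at 119, 161 and 162 CPM in CD8 and 33.9, 43.6 and 56.5 CPM in CD4 (3.3-fold, adjusted p = 4.93e-04). The remaining 2 calls higher in CD8, Cd96 and Vsir at 1.26- and 1.2-fold, were lost when any single library other than CD4 replicate 1 was left out, and with the TMM factor taken out, and that of Vsir also with the replicate block. The lymphotoxin gene Ltb was at 777 to 998 CPM in CD4 and 805 to 867 CPM in CD8 (adjusted p = 0.75), and Cd27 differed by 1.02-fold (adjusted p = 0.82).

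Genes of follicular helper cells, which help B cells in germinal centres, were higher in CD4 for 12 of the 14 tested members of a list of 16. Of these, Il21, Maf, Sostdc1 and Tox2 were under 1 CPM in every CD8 library and passed the filter through CD4 alone, so they had to differ. Of the other 10 members 8 were higher in CD4, with a median difference of 0.82. Il21, their main cytokine, was at 3.64, 6.07 and 6.62 CPM in CD4 and at 1 read or none in each CD8 library (at least 49.3-fold). Sostdc1, a secreted inhibitor of BMP and Wnt signaling, was at 2.67, 4.39 and 2.33 CPM in CD4 and at 0 in all 3 CD8 libraries (at least 28.3-fold). Angptl2 was 9.11-fold higher. The exceptions were Slamf6 (adjusted p = 0.0746) and the B cell coactivator Pou2af1 (adjusted p = 0.714). All 12 regulatory T cell markers were also called higher in CD4, with a summed level of 739 to 885 CPM against 111 to 113 CPM in CD8. Of these markers, Itgb8, Lrrc32 and Tnfrsf4 were under 1 CPM in every CD8 library, so they were bound to be higher in CD4. Over all tested genes, 11.2% were called higher in CD4. In bulk samples, fewer cells of a type and less RNA per cell cannot be told apart, so these values do not separate a gene of all CD4 cells from a gene of a few.

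The cytotoxic program was higher in CD8 cells for 14 of 29 tested genes, with a median difference of -0.57, and 4 members were higher in CD4. Together that was 62.1%, against 19.5% of all tested genes. Of the 14, Gzmm and Ccl4 passed the filter through CD8 alone, so they were bound to be higher there. Of the other 27 genes 12 were higher in CD8, with a median difference of -0.56. Gzmm, a granzyme of resting killer cells, was at 15.2, 17.5 and 11.9 CPM in CD8 and 0.939, 0.387 and 0.643 CPM in CD4 (22.6-fold, adjusted p = 1.42e-05). The chemokine Xcl1, which attracts cross-presenting dendritic cells, was 16-fold higher, and Ccl5 6.84-fold higher, with CD4 replicate 3 at 26.6 CPM against 9.47 and 8.84 CPM. Crtam, an adhesion receptor of activated killer cells, was at 53, 57.7 and 55.3 CPM against 6.54, 7.3 and 5.58 CPM (8.55-fold), and the Rab27 effector Sytl3 8.7-fold higher. Of the 4 members higher in CD4, Fasl, the death ligand for Fas, was at 7.1, 7.52 and 8.36 CPM against 1.54, 2.2 and 1.59 CPM in CD8 (4.32-fold, adjusted p = 8.24e-05). Stx11, a SNARE protein of granule fusion, was 4.44-fold, Sytl2, which tethers granules, 1.81-fold and Rab27a, their GTPase, 1.35-fold higher in CD4. Srgn, the granule proteoglycan (adjusted p = 0.725), and the lysosomal protein Lamp1 (adjusted p = 0.25) were not called.

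Of 24 killer cell receptors and adaptors 15 were tested, and 8 of these were higher in CD8. Of those 8, Klra3, Klra6, Klra7 and Klre1 were under 1 CPM in every CD4 library and passed the filter through CD8 alone, so they had to differ, and the same holds in the other direction for Klrg1. Of the other 10 members 4 were higher in CD8, with a median difference of -0.17. Klrd1, which encodes CD94, was at 84.6, 99 and 107 CPM in CD8 and 5.64, 4.65 and 6.71 CPM in CD4 (17.1-fold, adjusted p = 1.43e-06). Its partner Klrc1, which encodes NKG2A, was at 3.74, 6.16 and 10.9 CPM in CD8 and 0.0376, 0.207 and 1.58 CPM in CD4. Cd160 was 5.2-fold higher and Klre1 at least 28.2-fold higher. The inhibitory receptors Klra6 and Klra7 were at 1.72 to 6.45 CPM in CD8 and at 0.153 CPM or less in CD4, and since the Klra genes are close copies, their separate levels are uncertain. Klrg1, often used as a marker of terminally differentiated killer cells, was the 1 called member higher in CD4, at 4.96, 6.68 and 8 CPM against 0.0374, 0.08 and 0.364 CPM (40.7-fold, adjusted p = 3.92e-05), and 2 members were called higher in CD4 without CD8 replicate 3. The adaptor Hcst was at 83.6 to 118 CPM in CD4 and 110 to 119 CPM in CD8 and was not called (adjusted p = 0.218).

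**Figure D4:**
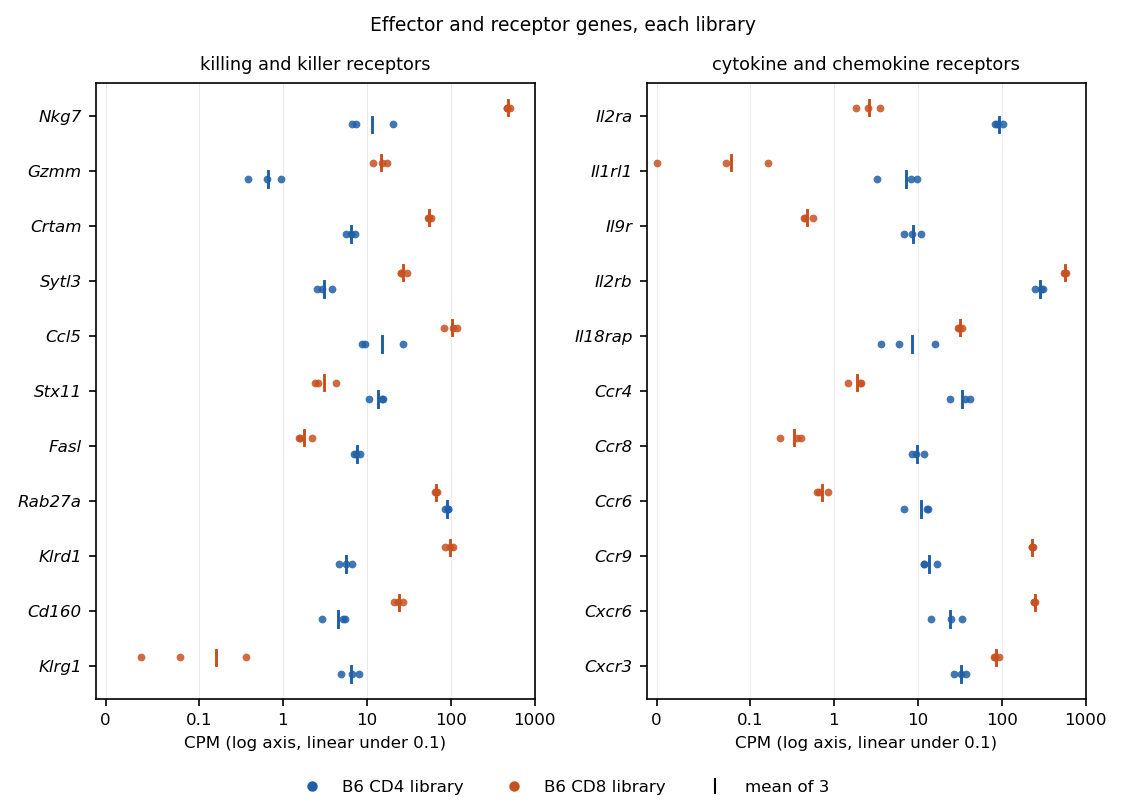
CPM in each library of genes of killing (left) and of cytokine and chemokine receptors (right), on an axis that is logarithmic above 0.1 and linear below, with ticks at the mean of 3 libraries. Nkg7, Gzmm, Crtam, Ccr9 and Cxcr6 are higher in the orange CD8 libraries, while Fasl, Stx11, Klrg1, Il2ra, Ccr4 and Ccr8 are higher in the blue CD4 libraries.

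Cytokine receptors divided the lineages in both directions, with 11 of 29 higher in CD4, 7 in CD8 and a median difference of 0.00. Of the 11, Il1rl1, Il1r2 and Il9r passed the filter through CD4 alone, so they were bound to be higher there. Of the other 26 genes 8 were higher in CD4 and 7 in CD8. The IL-2 receptor itself was split. The alpha chain Il2ra was at 84.3, 105 and 87.2 CPM in CD4 and 2.55, 1.84 and 3.54 CPM in CD8, the beta chain Il2rb was 1.99-fold higher in CD8, and the common gamma chain Il2rg was not called (925, 892 and 914 against 910, 926 and 994 CPM, adjusted p = 0.724). The IL-15 receptor chain Il15ra was 1.58-fold higher in CD8 (adjusted p = 0.0419), a call lost when any single library other than CD4 replicate 3 was left out. Il9r was 18.3-fold higher in CD4, Tgfbr3, a co-receptor for TGF-beta, 2.42-fold and Il10ra 1.67-fold, whereas the other IL-10 receptor chain, Il10rb, was 1.71-fold higher in CD8. The interferon gamma receptor chain Ifngr1 was at 196, 231 and 241 CPM in CD8 and 123, 126 and 157 CPM in CD4 (1.65-fold, adjusted p = 0.00417).

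The IL-1 receptor family, whose genes lie together at chr1:40074079-40551705 on GRCm38, showed both directions within 1 cluster. The decoy receptor Il1r2 was at 5.41, 6.78 and 3.86 CPM in CD4 and about 3 reads or fewer in each CD8 library (adjusted p = 2.32e-05). Il1rl1, which encodes the IL-33 receptor ST2, was at 3.31, 8.36 and 9.83 CPM in CD4 and 0.0749, 0 and 0.166 CPM in CD8 (adjusted p = 2.46e-04). Il1r2 and Il1rl1 passed the filter through CD4 alone, so they were bound to be higher there. The IL-18 receptor genes were higher in CD8. Il18r1 was at 73.6, 61.8 and 60.1 CPM against 41.6, 44.3 and 48.4 CPM (1.46-fold, adjusted p = 0.00852), and Il18rap at 30.1, 30.9 and 33.8 CPM against 3.68, 6.04 and 16.2 CPM (3.66-fold, adjusted p = 0.0113), with CD4 replicate 3 the highest of the CD4 values. Il1rl1 and Il18r1, the 2 that adjoin, were 136 bases apart.

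Among JAK, STAT and SOCS genes 3 of 22 were higher in CD4 and 1 in CD8, Stat4, or 18.2% against 19.5% of all tested genes. The inhibitors induced by STAT5, Socs2 and Cish, were higher in CD4, Socs2 at 6.88, 7.81 and 6.31 CPM against 0.524, 0.52 and 0.596 CPM (12.8-fold, adjusted p = 6.17e-06) and Cish at 37.5, 45.1 and 33.7 against 7.34, 12.2 and 6.43 CPM (4.47-fold). Socs2 passed the filter through CD4 alone, so it was bound to be higher there. Of the other 21 genes 2 were higher in CD4. Stat5b, 1.26-fold higher in CD4, lost its call with the replicate block, and 2 genes were called higher in CD8 without CD4 replicate 1. Jak1 was 764, 957 and 949 CPM in CD4 and 1119, 1097 and 1074 CPM in CD8 (adjusted p = 0.0858).

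Chemokine and homing receptors were higher in CD4 for 10 of 26 and in CD8 for 4, and 4 of the 10 passed the filter through CD4 alone. Together that was 53.8%, against 19.5% of all tested genes. Of the other 22 genes 6 were higher in CD4 and 4 in CD8. On the CD4 side were Ccr4, for skin-homing ligands, at 24.2, 41.5 and 36.1 CPM against 2.1, 2.08 and 1.49 CPM (18-fold), Ccr8 (29.6-fold), Ccr6, the receptor for CCL20, (15.3-fold) and Ccr10 (4.6-fold). The prostaglandin receptor Ptger2 was 2.81-fold and the nucleotide sugar receptor P2ry14 5.35-fold higher. Among those on the CD8 side were Ccr9, at 232, 239 and 227 CPM against 11.8, 17.2 and 12 CPM, its neighbour Cxcr6, at 246, 252 and 245 against 14.3, 25.1 and 34 CPM (10.1-fold), and Cxcr3, for interferon-induced chemokines (2.65-fold). Ccr9 and Cxcr6 lie 22.1 kb apart on chromosome 9. The receptors that move cells into and out of the LN were not called: Ccr7 was at 823, 738 and 713 against 654, 699 and 618 CPM (adjusted p = 0.175) and S1pr1 at 686, 757 and 856 against 706, 769 and 762 CPM (adjusted p = 0.857).

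Integrins and adhesion molecules were higher in CD4 for 12 of 33 and in CD8 for 6, or 54.5% against 19.5% of all tested genes. Of the 12, Itgb8 passed the filter through CD4 alone, so it was bound to be higher there. Itgb3, the beta chain of the vitronectin receptor, was at 177, 183 and 198 CPM in CD4 and 30.2, 28.7 and 29.9 CPM in CD8 (6.29-fold, adjusted p = 7.89e-07). The tetraspanin Cd81 was 12.4-fold, the proteoglycan Sdc4 6.89-fold and Itgb8, whose product activates TGF-beta, 25.8-fold higher, with Itgb8 lowest in CD4 replicate 1 (1.43 against 5.58 and 5.85 CPM). Itgae, which encodes CD103 and binds E-cadherin on epithelium, was at 274, 232 and 169 CPM in CD8 and 32.8, 54.8 and 29.8 CPM in CD4 (5.76-fold, adjusted p = 2.46e-04). Its beta chain Itgb7 was at 942, 931 and 940 CPM in CD4 and 919, 982 and 915 CPM in CD8 (adjusted p = 0.993). The ICAM gene Icam1 was 2.24-fold, Thy1 1.46-fold and the selectin ligand Selplg 1.41-fold higher in CD8. The myeloid-type integrins were opposed, with Itgam 3.81-fold higher in CD4 and Itgax 4.39-fold higher in CD8, at 4.94 CPM or less in every library.

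Early response genes and reporters of TCR signals were higher in CD4 for 19 of 34 and in CD8 for 3, with a median difference of 0.54. Together that was 64.7%, against 19.5% of all tested genes. Of the 3, Ier3 passed the filter through CD8 alone, so it was bound to be higher there. The orphan nuclear receptor Nr4a1, induced by TCR signals, was at 72.9, 60.2 and 56.2 CPM in CD4 and 17.9, 15.1 and 16.4 CPM in CD8 (3.83-fold, adjusted p = 2.09e-05). Irf4, whose level follows TCR signal strength, was at 34.3, 47.8 and 44.9 against 11.7, 13.3 and 16 CPM (3.11-fold, adjusted p = 2.39e-04). The negative regulators of ERK signaling Dusp4 (4.08-fold) and Spry1 (3.52-fold) and the pseudokinase Trib1 (8.19-fold) were higher as well. In CD8 cells Myc, the growth regulator, was at 149, 153 and 138 CPM against 105, 112 and 99 CPM (1.39-fold, adjusted p = 0.00491), and Ier3, an immediate early gene, at 2.02 to 2.68 CPM against 0.0751 to 0.184 CPM, was also called. The third, Dusp6 (1.27-fold, adjusted p = 0.0448), lost its call without CD4 replicate 1 or 2 and without CD8 replicate 2 or 3. Ier5 and Junb were not called (adjusted p = 0.769 and 0.0595).

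Genes of quiescence and survival were higher in CD4 for 10 of 31 and in CD8 for 5, or 48.4% against 19.5% of all tested genes. The BCL2 family was divided between the lineages. Bcl2a1d (4.15-fold), Bcl2a1b (2.21-fold), which are close copies with uncertain separate levels, and Bcl2l1, which encodes BCL-XL, at 29.2, 31.5 and 25.6 against 20.5, 19.9 and 16 CPM (1.53-fold, adjusted p = 0.0109), were higher in CD4. The proapoptotic Bid was at 32.5, 28.9 and 30.4 CPM in CD8 and 20.1, 17.9 and 17.9 CPM in CD4 (1.65-fold, adjusted p = 0.00108). Bcl2, the chief survival factor of resting T cells, was 1.39-fold higher in CD8 (adjusted p = 0.0366), a call lost without any of the 3 CD4 libraries and without CD8 replicate 1 or 2. Pim2, a survival kinase, was 2.3-fold and Dapl1 2.15-fold higher in CD8. Slfn5 was 1.84-fold higher in CD4. The antiproliferative gene Btg1 was at 925 to 1078 CPM in CD4 and 755 to 889 CPM in CD8 (adjusted p = 0.0726). The 5 calls higher in CD8 were 3 without CD4 replicate 2 or CD8 replicate 2.

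Enzymes that build surface glycans differed in both directions, with 10 of 36 higher in CD4 and 10 in CD8. Together that was 55.6%, against 19.5% of all tested genes. St3gal5 and Gcnt1 passed the filter through CD4 alone, so they were bound to be higher there. Of the other 34 genes 8 were higher in CD4 and 10 in CD8. Besides St8sia6, the sialyltransferases St3gal2, at 25.4, 32.8 and 27.5 CPM against 1.98, 2.72 and 2.29 CPM (12.3-fold, adjusted p = 3.24e-06), and St3gal5, which makes ganglioside GM3 (10.6-fold), and the core 2 enzyme Gcnt1 (9.92-fold) were higher in CD4. In CD8 cells St3gal6 was at 42.9, 48.1 and 44.7 CPM against 19.7, 20.3 and 22.4 CPM (2.18-fold, adjusted p = 8.30e-05). Cmah, which hydroxylates sialic acid, was 2.26-fold, B3gnt5, which starts lactoside-series glycolipids, 2.49-fold and the sulfotransferase Chst15 2.39-fold higher in CD8. B4galt1 and St3gal1 were not called (adjusted p = 0.104 and 0.089). The 10 calls higher in CD4 were 6 without CD4 replicate 2 or CD8 replicate 3.

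Purine signaling showed 4 of 14 genes higher in CD4 and 3 in CD8, or 50% against 19.5% of all tested genes. The ATP-gated channel P2rx7 was at 43.5, 64.6 and 51.7 CPM in CD4 and 13.1, 16 and 11.6 CPM in CD8 (3.92-fold, adjusted p = 1.24e-04), and Entpd1, which encodes the ATP-degrading enzyme CD39, was 3.37-fold higher in CD4. Dpp4, which encodes the adenosine deaminase binding protein CD26, was at 185, 181 and 201 CPM in CD8 and 59, 64 and 75.8 CPM in CD4 (2.85-fold, adjusted p = 3.85e-05). Nt5e, which encodes CD73, was not called (adjusted p = 0.365). Of the 3 calls higher in CD8, 1 was left in number without CD4 replicate 2, CD8 replicate 2 or CD8 replicate 3.

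In glycolysis and the pentose phosphate pathway 5 of 29 were higher in CD4 and 5 in CD8. Together that was 34.5%, against 19.5% of all tested genes. Ldhb, the lactate dehydrogenase subunit that favours pyruvate, was at 54.7, 38.2 and 39.2 CPM in CD4 and 15, 12.6 and 15.8 CPM in CD8 (3.04-fold, adjusted p = 2.55e-04), and the pyruvate kinase Pkm was 1.45-fold higher in CD4 (adjusted p = 0.00302). The lactate transporters were split, with Slc16a3 3.14-fold higher in CD4 and Slc16a1, at 74.4, 92.7 and 85.5 CPM against 37.2, 39.9 and 44.7 CPM, 2.07-fold higher in CD8 (adjusted p = 3.45e-04). Hk2, an inducible hexokinase, was 2.72-fold higher in CD8. Gapdh and Eno1 were not called (adjusted p = 0.523 and 0.263). The 5 calls higher in CD8 were 3 with the replicate block, where Slc2a3 and Pfkp lost theirs, 2 without CD4 replicate 2 or any 1 CD8 library and 3 without CD4 replicate 3. With the TMM factor taken out they were 2.

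The sterol list had 10 of 45 higher in CD4, 2 in CD8 and a median of 0.13, or 26.7% against 19.5% of all tested genes. The cholesterol synthesis enzymes Sqle (2.06-fold), Cyp51 (1.72-fold), Fdft1 (1.53-fold) and Sc5d (1.46-fold) were higher in CD4. Insig1, which holds the sterol sensor in the endoplasmic reticulum, was 1.39-fold higher, while Srebf2, the transcription factor of this pathway, was at 255, 300 and 312 against 264, 254 and 249 CPM (adjusted p = 0.276). The fatty acid enzymes Acaca and Elovl6 were 1.54- and 1.61-fold higher in CD8, and both calls were lost without CD8 replicate 1 or 3. The 10 calls higher in CD4 were 6 without CD8 replicate 2 or 3, and the 2 higher in CD8 were 4 without CD4 replicate 1, 1 without CD8 replicate 2 and 1 with the TMM factor taken out. In the TCA cycle 2 of 26 were higher in CD4 and 1 in CD8, or 11.5% against 19.5% of all tested genes. The 2 were 1 without CD4 replicate 2 or 3 or CD8 replicate 1 or 3, none of the 3 was called in limma without CD8 replicate 2, the 1 was lost without CD4 replicate 2 or CD8 replicate 3, and 3 were higher in CD8 without CD4 replicate 1.

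Solute carriers were higher in CD4 for 24 of 166 and in CD8 for 17, with a median of -0.01, or 24.7% against 19.5% of all tested genes. Of these, 8 passed the filter through CD4 alone and 2 through CD8 alone, and 19.9% of the other 156 were called. The 24 were 15 without CD8 replicate 2. In CD4 cells Slc41a3, related to magnesium transporters, was 3.69-fold and the organic cation transporter relative Slc22a15 8.01-fold higher, and Slc22a2 was at least 17.3-fold higher at 1.84 to 1.99 CPM. In CD8 cells the iron transporter Slc11a2 was at 65.8, 68.7 and 67.3 CPM against 29.3, 30.8 and 31.4 CPM (2.21-fold, adjusted p = 2.75e-05). Slc25a4, which exchanges ADP and ATP across the inner mitochondrial membrane, was at 179, 195 and 189 CPM in CD8 and 104, 91.1 and 82.6 CPM in CD4 (2.02-fold, adjusted p = 2.32e-04), while Slc25a5 of the same function was not called (adjusted p = 0.522). In the list of amino acid, nucleoside and ion transporters, 7 of 35 were higher in CD4 and 6 in CD8. Together that was 37.1%, against 19.5% of all tested genes. Of the 6, Slc6a19 and Kcnj8 passed the filter through CD8 alone, so they were bound to be higher there. The calcium channel subunit Orai1 was 1.43-fold and its sensor Stim2 1.35-fold higher in CD4, and the chloride cotransporter Slc12a7 1.72-fold and the amino acid transporter Slc43a2 1.63-fold higher in CD8. The 7 were 4 without CD8 replicate 1 or 3.

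Cell cycle genes were higher in CD4 for 11 of 41, with a median difference of 0.29, and in CD8 for 6. Together that was 41.5%, against 19.5% of all tested genes. Stmn1, a microtubule regulator of dividing cells, was at 70.9, 52 and 46 CPM against 18.9, 17.9 and 19.1 CPM (3.02-fold, adjusted p = 2.39e-04), and E2f2 2.41-fold, Cdk2 1.92-fold, Plk1 2.31-fold and Rrm2 1.87-fold higher in CD4. In CD8 cells Kif23, needed for cytokinesis, was at 14.5, 16.1 and 15.9 CPM against 6.8, 6.71 and 6.25 CPM (2.35-fold, adjusted p = 9.37e-05) and cyclin E1, Ccne1, 1.93-fold higher. Mcm3 and Mcm5, at 1.2- and 1.21-fold higher in CD8, lost their calls with the replicate block, and the 6 calls were 2 without CD8 replicate 1 or 2 and 3 without CD4 replicate 2. Cyclins D2 and D3 were not called (Ccnd2, adjusted p = 0.218, and Ccnd3, adjusted p = 0.754).

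Of 38 chromatin enzymes 3 were called in each direction, or 15.8% against 19.5% of all tested genes. Hdac7, a class IIa histone deacetylase of thymocytes and cytotoxic cells, was at 214, 186 and 171 CPM in CD8 and 122, 124 and 113 CPM in CD4 (1.59-fold, adjusted p = 0.00212), and Hdac4 1.61-fold higher in CD8. The histone demethylase Kdm5b was 1.37-fold higher in CD4. The 3 higher in CD4 were 7 without CD4 replicate 1, 5 without CD8 replicate 1 and 6 with the TMM factor taken out.

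In the list of RGS proteins, GTPases and phospholipid regulators, 5 of 50 were called in each direction, or 20% against 19.5% of all tested genes. Of its 7 RGS proteins, which shorten signals of G protein coupled receptors, 4 were higher in CD4 and 3 were not called. Rgs1 was at 21.8, 24.8 and 24.8 CPM against 4.08, 5 and 5.47 CPM (4.9-fold, adjusted p = 1.46e-05), Rgs16 4.76-fold, Rgs2 1.99-fold and Rgs14 1.31-fold higher, with the call of Rgs14 lost without CD8 replicate 2 or 3. The 3 without a call, named after their values were seen, were Rgs3 (log2 difference -0.31, adjusted p = 0.0642), Rgs10 (0.45, adjusted p = 0.0704) and Rgs19 (0.00, adjusted p = 0.98). With the replicate block Rgs3 was called higher in CD8 (adjusted p = 0.0498) and Rgs10 higher in CD4 (adjusted p = 0.0296). Pik3cd, the PI3K subunit of lymphocytes, was at 757, 731 and 668 CPM in CD8 and 489, 559 and 517 CPM in CD4 (1.38-fold, adjusted p = 0.00807), a call lost without CD8 replicate 2. The actin regulators Coro1a and Rac2 were not called (adjusted p = 0.562 and 0.979). The 5 higher in CD4 were 11 without CD4 replicate 1, 3 without CD8 replicate 2 or 3 and 8 with the TMM factor taken out. The 5 higher in CD8 were 1 without CD8 replicate 1 or 2, 3 without CD4 replicate 2 or 3 or CD8 replicate 3, and 2 with the TMM factor taken out.

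NF-kB and TNF receptor signaling had 2 of 28 called in each direction, or 14.3% against 19.5% of all tested genes. Nod1, a sensor of bacterial peptidoglycan, was at 62.8, 62.5 and 62.3 CPM in CD8 and 29, 28.3 and 32.8 CPM in CD4 (2.08-fold, adjusted p = 7.93e-05). Both calls higher in CD4 were lost when any 1 of CD4 replicates 2 and 3 and CD8 replicates 1 and 2 was left out, and there were 6 without CD4 replicate 1 and 4 with the TMM factor taken out. The 2 higher in CD8 were 1 with the replicate block, with the TMM factor taken out and without any 1 library other than CD4 replicate 1. In TGF-beta, Notch and Wnt signaling 4 of 34 were higher in CD4 and 5 in CD8, or 26.5% against 19.5% of all tested genes. Acvrl1, a type I receptor best known from endothelium, was at 75.4, 58.2 and 56.2 CPM in CD4 and 16.7, 13 and 11.7 CPM in CD8 (4.58-fold, adjusted p = 5.01e-05), opposite to its co-receptor Eng. The Wnt carrier Wls was 1.61-fold higher in CD8 (adjusted p = 5.28e-04). The 4 higher in CD4 were 8 with the replicate block and 10 without CD4 replicate 1, and the 5 higher in CD8 were 2 without CD8 replicate 1 and 1 without CD8 replicate 2.

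The GIMAP GTPases, which control lymphocyte survival, differed by 1.51-fold or less in all 8 genes. Gimap5 was at 99.5, 92.6 and 99.5 CPM in CD8 and 66.2, 63.1 and 63.5 CPM in CD4 (1.51-fold, adjusted p = 8.20e-04), and 4 of the other 7 were higher in CD4 by 1.27- to 1.35-fold. Those 4 calls, of Gimap1, Gimap3, Gimap6 and Gimap9, were all lost without CD8 replicate 1 or CD8 replicate 2, 2 remained in number without CD4 replicate 2, and that of Gimap9 was lost with the replicate block.

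Cytoskeleton and migration genes were higher in CD4 for 12 of 50 and in CD8 for 5, or 34% against 19.5% of all tested genes. The 5 higher in CD8 were 10 without CD4 replicate 1. Of the 12, Anxa1 and Dst passed the filter through CD4 alone, so they were bound to be higher there. The calcium-binding proteins S100a4, at 42, 42.3 and 41.9 CPM against 3.6, 2.04 and 3.25 CPM (14.2-fold, adjusted p = 5.65e-06), and S100a6 (3.84-fold), and the actin-capping Capg (5.27-fold) were higher in CD4. Myo1f, a class I myosin of leukocytes, was at 77.6, 71.6 and 65 CPM in CD8 and 14.4, 21.4 and 19.8 CPM in CD4 (3.86-fold, adjusted p = 6.71e-05), and the tubulin Tubb5 was 1.4-fold higher in CD8. Actb and Tmsb4x were not called (adjusted p = 0.18 and 0.395).

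MHC class I and the supply of its peptides had 1 of 26 higher in CD4 and 3 in CD8, or 15.4% against 19.5% of all tested genes. Tapbpl, which edits peptides on class I molecules, was at 129, 128 and 173 CPM in CD8 and 60.6, 61.2 and 88.2 CPM in CD4 (2.05-fold, adjusted p = 0.00403), with replicate 3 highest in both. B2m and H2-K1 were not called (adjusted p = 0.488 and 0.583). The chaperone Pdia3, 1.31-fold higher in CD4, lost its call without CD8 replicate 1 or 2, and 2 were higher in CD4 with the replicate block, with the TMM factor taken out and without CD4 replicate 1 or CD8 replicate 3. The 3 calls higher in CD8 were 5 without CD4 replicate 1 or 3.

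Interferon-stimulated genes varied more with the replicate than with the cell type. Their 52 tested members summed to 4996, 5124 and 9200 CPM in the CD4 libraries and 5227, 5340 and 9649 CPM in the CD8 libraries. Replicate 3 was above the mean of replicates 1 and 2 in 49 of the 52 genes in CD4 and 51 in CD8, by a median of 0.71 on the log2 scale in each. In this list 3 genes were called higher in CD4 and 4 in CD8, or 13.5% against 19.5% of all tested genes. With the replicate number as a block they were 8 and 10. Oas3, an antiviral RNA sensor, was higher in CD8, at 75.8, 80.2 and 108 CPM against 26.8, 34 and 56.2 CPM (2.26-fold, adjusted p = 0.0124), and Ifi27l2a higher in CD4, at 260, 178 and 190 CPM against 113, 99.2 and 138 CPM (1.79-fold, adjusted p = 0.00985). Of the 3 higher in CD4, 1 was left in number without CD4 replicate 2 or 3 or CD8 replicate 1 or 2, and of the 4 higher in CD8, 2 without CD4 replicate 2 or CD8 replicate 1 or 3.

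**Figure D5:**
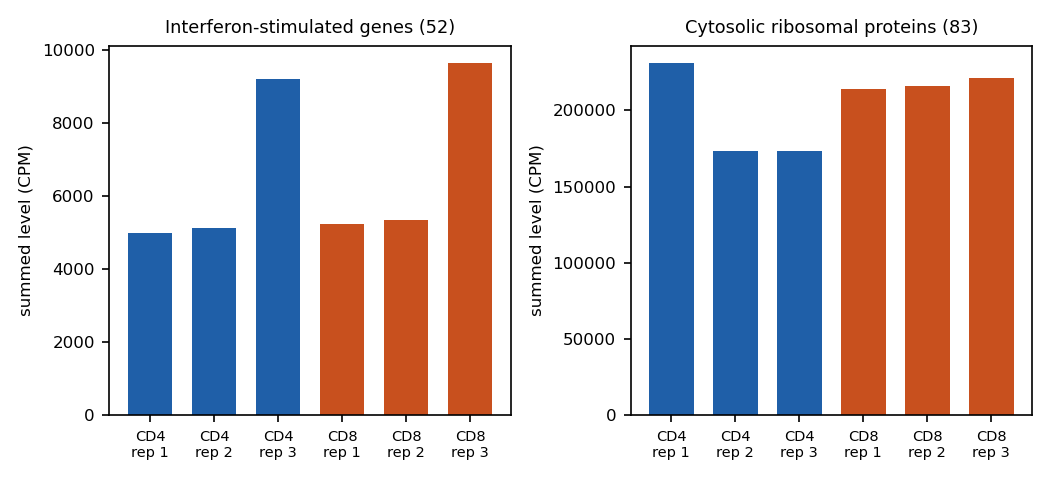
Bars give the summed level in CPM of the interferon-stimulated genes (left) and the cytosolic ribosomal proteins (right) in each library, blue for CD4 and orange for CD8. Interferon-stimulated genes are highest in replicate 3 of both cell types, while the ribosomal sum is highest in CD4 replicate 1 and lower in CD4 replicates 2 and 3 than in any CD8 library.

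Cytosolic ribosomal proteins were not called in limma in any of 83 genes, although 81 of the 83 were lower in CD4, by a median of 0.16 on the log2 scale. An unadjusted p-value under 0.05 was reached by 6, all higher in CD8. Their sum was 231056 CPM in CD4 replicate 1, 173098 and 173503 CPM in CD4 replicates 2 and 3, and 214113, 215843 and 221444 CPM in CD8. This depended on 1 library. Without CD4 replicate 1, 78 of the 83 were called higher in CD8, with a median difference of -0.31. Rplp0 was at 8142, 6748 and 6647 CPM in CD4 and 8425, 8610 and 8624 CPM in CD8 (adjusted p = 0.193), and Rpsa at 8201, 6369 and 6436 against 8027, 8400 and 8588 CPM (adjusted p = 0.232). Nuclear genes of the respiratory chain gave no call in limma in 87, with a median of 0.01 and 2 genes at an unadjusted p-value under 0.05, and 16 were higher in CD8 without CD4 replicate 1. Of 12 mitochondrial genes mt-Co3 was called (1.67-fold higher in CD8, adjusted p = 0.0443), with CD4 values of 630, 694 and 1203 CPM, and the call was lost without CD4 replicate 1 or 2 or any 1 CD8 library. Those 12 gave 3 calls higher in CD8 without CD4 replicate 3, 2 with the replicate block and 1 higher in CD4 without CD4 replicate 1.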

How the data were processed

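RNA was measured in CD4 and CD8 LN T cells electronically sorted from B6 mice, 3 libraries of each. Total RNA was made into libraries with a low-input kit and sequenced as paired-end reads. The submitters' processing notes name Trimmomatic, TopHat and build mm10, whereas the methods of the study name STAR. The program that counted reads, the annotation and the filter on low values are not given in the sources used here. The authors deposited a table of normalized signal, which is CPM divided by a TMM factor per library. Columns therefore sum to different totals. All 12809 identifiers matched GENCODE M21 (GRCm38). Whole reads were recovered for 85.4% to 86.6% of values under 100 CPM (within 0.01 read), below the 95% required, so no test on counts was run. Intervals and the floor of 3 reads cover counting error only, since reads have no molecular identifiers. No column was left unused, and no 2 libraries were identical.

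Genes that reached 1 CPM in 3 or more libraries were put on the log2(CPM + 0.5) scale. A model with 1 mean per group and 4 residual degrees of freedom was then fitted by limma 3.58.1 (R 4.3.3), its eBayes step taking the mean-variance trend into account. P-values were adjusted by Benjamini-Hochberg over all 11134 genes, and 0.05 was the threshold. Fold changes in the text are ratios of mean CPM, while the 5-fold limit applies to the log2 difference. A ratio against a group at or under 3 reads in each library is given as a lower bound. The script was tested on simulated data with 200 changed genes among 11134: 85 of 100 changes of 1 and 97 of 100 changes of 2.5 on the log2 scale were recovered, and 7 unchanged genes were called.

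Deviations of same-numbered CD4 and CD8 libraries from their group means correlated at 0.19, 0.12 and 0.37 for replicates 1, 2 and 3. Those of differently numbered libraries correlated at -0.37 to 0.17, the highest for CD4 replicate 2 with CD8 replicate 1, which is above the 0.12 of replicate 2. By the rule used, every same-numbered pair over 0.1, the numbers were taken to pair the libraries, although the labels do not say what is shared. The main fit had no block, and the calls in the text come from it unless the block is named. The fit with the replicate number as a block was run as an alternative. Other alternatives were the pseudocount, the filter, the scaling, eBayes without a trend, all 12 libraries in the fit and leaving out each library.

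The members and the 31 gene lists were chosen with earlier results of these data known. Genes were named by these rules: the 15 largest rises in each direction of at least 10 CPM, the 10 most abundant calls in each direction at 1.5- to 5-fold (ribosomal, mitochondrial and predicted genes and pseudogenes left out), and in each list up to 6 calls in each direction and 2 genes not called. A few genes that these rules name are not reported here. Symbols of RefSeq promoters (GRCm38.p6) were matched to the table, and windows were aligned with biopython 1.88. Plots were made in python 3.11.15 (matplotlib 3.10.9).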

Additional observations from a re-analysis of the deposited data

How the results depend on the processing

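Of the 265 named genes that were called, 202 were called under every one of the 15 alternatives that tested them, and none of the 265 changed sign. The named calls were chosen for size or abundance. Of all 2170 calls, 1341 were called whichever library was left out. Of the 59 named genes that were not called, 21 were called under at least 1 alternative and 21 changed sign under at least 1. The number of calls was 2170, and 1441 with a mean of at least 5 CPM required, where 9139 genes were tested. Leaving out 1 library gave 1426 (without CD8 replicate 2) to 3097 calls. Genes over 5-fold were 182, and 290 with a pseudocount of 0.1, 120 with a pseudocount of 1 and 112 with a mean of at least 5 CPM required, as a larger pseudocount shrinks the differences of low genes. Leaving out 1 library gave 177 to 198. The 343 called list members were 254 to 529, the highest without CD4 replicate 1. With the replicate block the calls were 2294 and those over 5-fold 182. The block removed 13 calls of named genes: Fyn, Gimap9, Isg20, Lcp2, Mcm3, Mcm5, Nfkbia, Pfkp, Pik3r5, Slc2a3, Stat5b, Traf1 and Vsir. It changed no other call of a named called gene. With 3 libraries per group, differences under about 1.5-fold were called mainly in abundant genes, and a gene without a call is not shown to be equal.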

Other observations

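The genes and families in these paragraphs were chosen after their values were seen. The beta chain variable segments of the T cell receptor differed in level and in share between CD4 and CD8 cells. Of 20 tested Trbv segments 9 were higher in CD4 and 5 in CD8 by level, where 11.2% and 8.3% are the shares over all tested genes. Trbv31 took 9.34%, 9.26% and 9.16% of all Trbv signal in the CD4 libraries and 2.2%, 2.22% and 2.51% in the CD8 libraries (log2 difference of its level 2.17 ± 0.10, SE, adjusted p = 5.65e-06). Trbv12-1 took 1.15%, 1.1% and 1.26% in CD4 and 5.63%, 6.01% and 5.85% in CD8, Trbv29 took 2.42% ± 0.249 (SD, n = 3) in CD4 and 7.67% ± 0.176 in CD8, and Trbv14 took 2.54% ± 0.177 and 6.73% ± 0.34. Trbv12-1 and Trbv12-2 moved alike and are close copies, so their separate levels are uncertain. Trbv15 was at 5.97% ± 0.271 and 6.17% ± 0.3, and its level was not called (adjusted p = 0.387). By share, with no test, Trbv16 was at 6.31% ± 0.293 in CD4 and 9.12% ± 0.181 in CD8, although its level was not called (adjusted p = 0.0721). The summed Trbv signal was 527 to 614 CPM in CD4 and 476 to 492 CPM in CD8. Of 80 tested Trav segments, many of them near-identical copies, 30 were higher in CD4 and 7 in CD8, with a median log2 difference of 0.35. The constant gene Trac was itself higher in CD4, at 1069, 920 and 860 CPM against 657, 664 and 657 CPM (1.44-fold, adjusted p = 0.00701), and the segments were not tested relative to it.

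Single ion channels and cyclic nucleotide enzymes were called, in families where 19.5% is the share over all tested genes. Of 15 potassium channel genes 5 were higher in CD4 and 3 in CD8. Kcna2, a voltage-gated channel, was at 51, 46.7 and 50.4 CPM in CD8 and 3.68, 7.62 and 6.92 CPM in CD4 (8.13-fold, adjusted p = 6.39e-05), whereas Kcna3, the voltage-gated channel best known from T cells, was at 4.92, 19.7 and 18.9 CPM in CD4 and 26.7, 21.8 and 20.9 CPM in CD8 and was not called (adjusted p = 0.254). The 3 calls among 11 phosphodiesterases, whose median log2 difference was -0.13, were higher in CD8: Pde2a, at 246, 325 and 298 CPM against 57.2, 98 and 83.6 CPM (3.64-fold, adjusted p = 3.23e-04), Pde7a (2.58-fold, adjusted p = 1.16e-04) and Pde3b (1.57-fold, adjusted p = 0.0468). The neuropilins were opposed, since Nrp2 was at 27.3, 29.1 and 23.8 CPM in CD8 and 2.14, 3 and 3.06 CPM in CD4 (9.77-fold, adjusted p = 5.76e-06), while Nrp1 was 20-fold higher in CD4. Sema4a, a semaphorin of T cells, was 2.13-fold higher in CD8 (adjusted p = 5.05e-05).

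Several neighbouring relatives went in opposite directions. Ly6c1 and Ly6c2 lie 59.3 kb apart on chromosome 15, with log2 differences of 7.0 and -6.76. Adgrg5 and Adgrg1 lie 31.5 kb apart on chromosome 8, with -6.44 and 1.31, Cd200r1 and Cd200r4 16.8 kb apart on chromosome 16, with 2.55 and -1.42, and Itgam and Itgax 11.1 kb apart on chromosome 7, with 1.59 and -1.65. Other neighbours moved together, such as Cd4 and Lag3, 16.1 kb apart on chromosome 6 (9.13 and 2.27), and Tnf and Lta, 1.16 kb apart on chromosome 17 (1.24 and 1.21). How often neighbours are opposed among all genes was not tested.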
